A study of Rattus norvegicus with 9 samples.

Results

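The surface markers of mesenchymal stem cells were examined in adipose-derived mesenchymal stem cells (ASCs) grown from 3 fat depots of the rat. They are Thy1, Nt5e, Eng, Vcam1, Cd34, Pdgfra, Pdgfrb, Mcam, Cspg4, and Alcam, which were chosen by name, with earlier results of these data known. All 10 were found among the 35362 genes of the count table and were detected in all 9 samples. SASCs came from subcutaneous fat of the groin, PASCs from perirenal fat, and EASCs from epididymal fat of Sprague Dawley rats, all male and 6 weeks old, with 3 samples in each group. All cells were obtained by collagenase digestion and culture in dishes and were at passage 3 when RNA was taken, and the methods describe no sorting by antibody. The study's methods give 6 culture wells in each group and do not say whether the 3 sequenced samples of each depot are from different rats, so the p-values below measure the spread between these samples, which may be technical.

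Mesenchymal stem cells are commonly recognized by proteins on their surface rather than by a single gene. THY1 (CD90), NT5E (CD73), and ENG (CD105) are the classical positive markers, whereas PTPRC (CD45) of leukocytes is a classical negative marker. The other markers overlap with neighbouring cell types of fat: PDGFRA marks fibroblasts and adipocyte progenitors, PDGFRB, CSPG4 (NG2), and MCAM (CD146) mark pericytes and other mural cells of vessels, and CD34 is carried by progenitors in fat and by endothelial cells. In bulk RNA, fewer cells of a type and less RNA per cell cannot be told apart, and RNA is not protein on the surface.

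Library totals ranged from 17591916 to 30299032 counts, so that 3 counts were worth 0.104 to 0.159 CPM, the count scaled to the size of its library. Counts on the 7 rRNA genes made up 13.6% ± 2.81 of the total in SASCs, 27.6% ± 5.28 in PASCs, and 28.5% ± 12.2 in EASCs (mean ± SD, n = 3 each). Reads on the rRNA precursor gene were counted again for its parts, so these shares, and the totals, hold such reads more than once and are higher than the share of reads. Their part in the differences below was not tested beyond the values with other scalings.

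The upstream sequences of the markers with the widest range between depots are shown because these are the genes whose RNA differed most. Of the 10 genes, 7 matched RefSeq's table of upstream sequences, and Thy1, Pdgfrb, and Mcam did not. The 5 shown are those of the matched genes whose mean level differed by more than 3-fold between the highest and the lowest depot. Each is the 250 bases before the start, 5′ to 3′ on the gene's own strand, on GRCr8. Cspg4 lies at chr8:66160692-66160941 on the plus strand, Cd34 at chr13:109008536-109008785 on the plus strand, Pdgfra at chr14:33408517-33408766 on the minus strand, Vcam1 at chr2:206742784-206743033 on the minus strand, and Eng at chr3:36332029-36332278 on the plus strand. Capitals mark matches, on either strand, to the motifs named after the sequences.
Cspg4: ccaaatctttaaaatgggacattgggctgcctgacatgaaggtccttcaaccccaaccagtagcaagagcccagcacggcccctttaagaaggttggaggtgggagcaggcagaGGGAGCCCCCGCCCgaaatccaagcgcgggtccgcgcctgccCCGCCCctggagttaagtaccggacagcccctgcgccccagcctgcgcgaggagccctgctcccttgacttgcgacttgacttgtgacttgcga
Cd34: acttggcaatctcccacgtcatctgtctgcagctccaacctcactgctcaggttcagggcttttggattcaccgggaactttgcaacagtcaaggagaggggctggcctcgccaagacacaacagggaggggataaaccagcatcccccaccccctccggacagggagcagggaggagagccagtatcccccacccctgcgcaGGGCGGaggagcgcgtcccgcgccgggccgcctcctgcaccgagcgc
Pdgfra: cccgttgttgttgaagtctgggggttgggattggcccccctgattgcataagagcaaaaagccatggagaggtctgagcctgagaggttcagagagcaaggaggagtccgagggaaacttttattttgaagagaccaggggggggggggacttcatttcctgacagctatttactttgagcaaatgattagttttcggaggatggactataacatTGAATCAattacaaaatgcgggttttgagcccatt
Vcam1: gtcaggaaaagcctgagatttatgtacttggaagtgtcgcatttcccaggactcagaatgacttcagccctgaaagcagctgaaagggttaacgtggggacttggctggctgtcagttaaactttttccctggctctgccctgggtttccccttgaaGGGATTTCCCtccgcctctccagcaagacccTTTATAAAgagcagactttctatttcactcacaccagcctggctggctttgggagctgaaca
Eng: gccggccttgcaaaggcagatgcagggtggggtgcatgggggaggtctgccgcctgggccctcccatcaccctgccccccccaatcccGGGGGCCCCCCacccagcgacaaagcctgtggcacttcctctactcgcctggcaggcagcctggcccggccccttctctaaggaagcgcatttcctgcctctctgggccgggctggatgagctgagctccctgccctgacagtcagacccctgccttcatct

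The 5 sequences had no motif in common. Of these 5, Vcam1 alone had a TATA box, matched on both strands from 62 and 60 bases before the start, and it held an NF-kB match from 93 bases before the start. The letters of the TATA box searched were TATAAA, which was found in 12.9% of 33469 rat upstream regions of this length and the NF-kB consensus in 6.33%. Cspg4 held GC boxes from 128 and 94 bases before the start, the first of which overlapped an NF-kB match, and Cd34 held a GC box from 47 bases. The GC box, searched as GGGCGG, was found in 30.5% of all regions. Pdgfra held an AP-1 match from 35 bases before the start, searched as TGANTCA and found in 6.34% of all regions, and Eng held 2 NF-kB matches that overlapped each other. The TEAD motif (GGAATG, 12.1% of all regions) and the CArG box (1.5%) were searched too and lay in none of the 5 sequences. These matches describe letters only and show no binding.

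Levels of different genes were compared as FPKM, that is CPM per kilobase of the gene's listed length. Thy1 had the highest level of the 10 in every depot, at or above the 99.0th percentile of detected genes. Nt5e came next after Thy1 in PASCs and EASCs, whereas Pdgfra stood between them in SASCs. In SASCs the order was Thy1, Pdgfra, Nt5e, Pdgfrb, Alcam, Eng, Vcam1, Mcam, Cd34, and Cspg4. PASCs had the order Thy1, Nt5e, Pdgfrb, Pdgfra, Eng, Alcam, Cspg4, Mcam, Vcam1, and Cd34. EASCs had the order Thy1, Nt5e, Eng, Pdgfrb, Alcam, Pdgfra, Mcam, Vcam1, Cspg4, and Cd34. In each depot, the samples of neighbours in these orders did not overlap. The orders depend on the listed lengths. In CPM, Pdgfra was above Thy1 in SASCs (means of 1543 and 545), and Nt5e was above Thy1 in EASCs (637 and 405). The highest mean FPKM was 399 times the lowest in SASCs, 1613 times in PASCs, and 125 times in EASCs. The median FPKM of the 10 genes was 30.4, 26.1, and 37.1 in SASCs, PASCs, and EASCs, against 1.69, 1.75, and 1.87 for all detected genes. Per total counts it was 36.0, 24.8, and 33.4, with SASCs above EASCs.

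**Figure D1:**
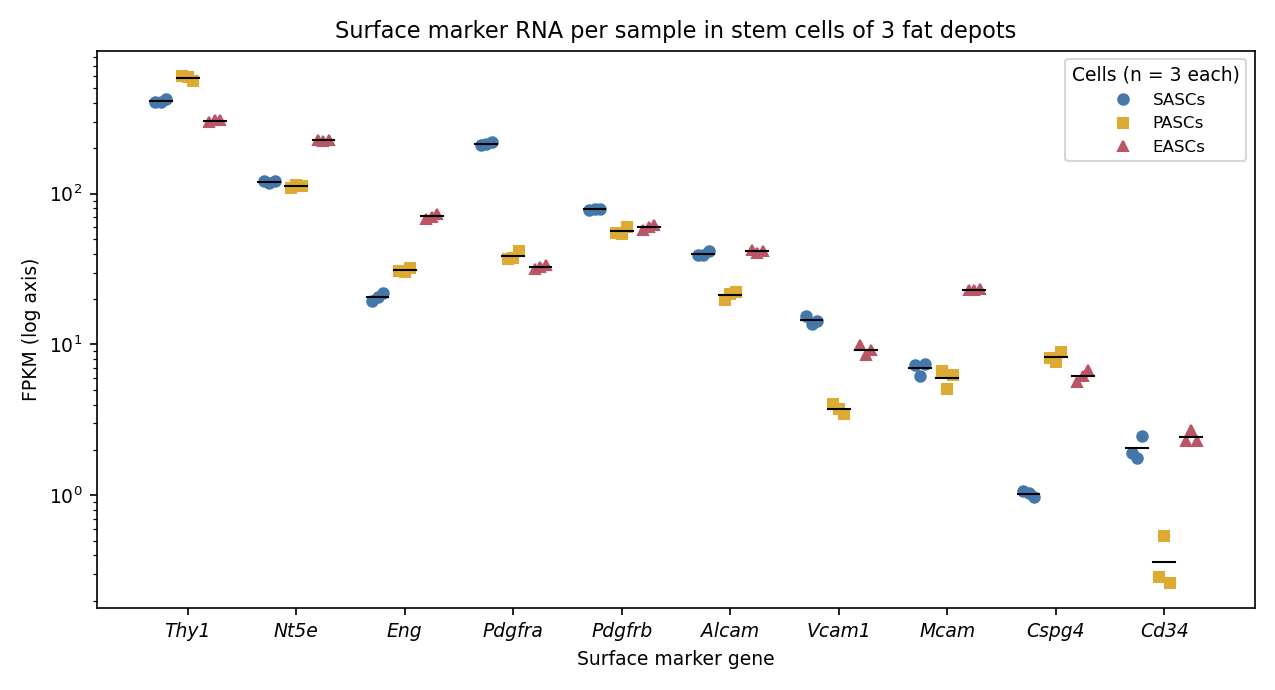
FPKM of each surface marker (vertical log axis) in the 3 samples of SASCs (circles), PASCs (squares), and EASCs (triangles), with the mean of each group as a black line. Thy1 was highest in every depot, the SASCs points of Pdgfra stood at 211 to 221 FPKM and those of the other depots at 31.5 to 41.5, and the PASCs points of Cd34 stood at 0.264 to 0.537.

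Differences were tested across all 14770 genes that passed a filter on low counts, and all 10 markers passed it. A gene was called when its fold change was above 2 with an adjusted p-value under 0.05 (edgeR's quasi-likelihood test with Benjamini-Hochberg adjustment). Between EASCs and SASCs, 4 of the 10 markers were called, with Eng, Mcam, and Cspg4 higher in EASCs and Pdgfra lower, where 27.8% of all genes were called (13.6% higher and 14.2% lower). Between PASCs and SASCs, 4 were again called, with Cspg4 higher and Vcam1, Cd34, and Pdgfra lower in PASCs, where 26.9% of all genes were called (12.0% higher and 14.9% lower). Between EASCs and PASCs, 5 were called, Nt5e, Eng, Vcam1, Cd34, and Mcam, all higher in EASCs, where 7.39% of all genes were called (5.19% higher and 2.20% lower). At an adjusted p-value under 0.05 and any fold change, 8, 9, and 9 of the 10 passed in the 3 comparisons, against 69.7%, 69.2%, and 30.7% of all genes. The samples of both groups did not overlap for 8, 9, and 9 markers, against 72.1%, 71.6%, and 41.2% of all genes. The median size of the log2 fold change of the 10, regardless of sign, was 0.78, 0.75, and 0.99, against 0.54, 0.54, and 0.20 for all genes. The comparisons share samples, and their values are therefore not independent of each other.

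**Figure D2:**
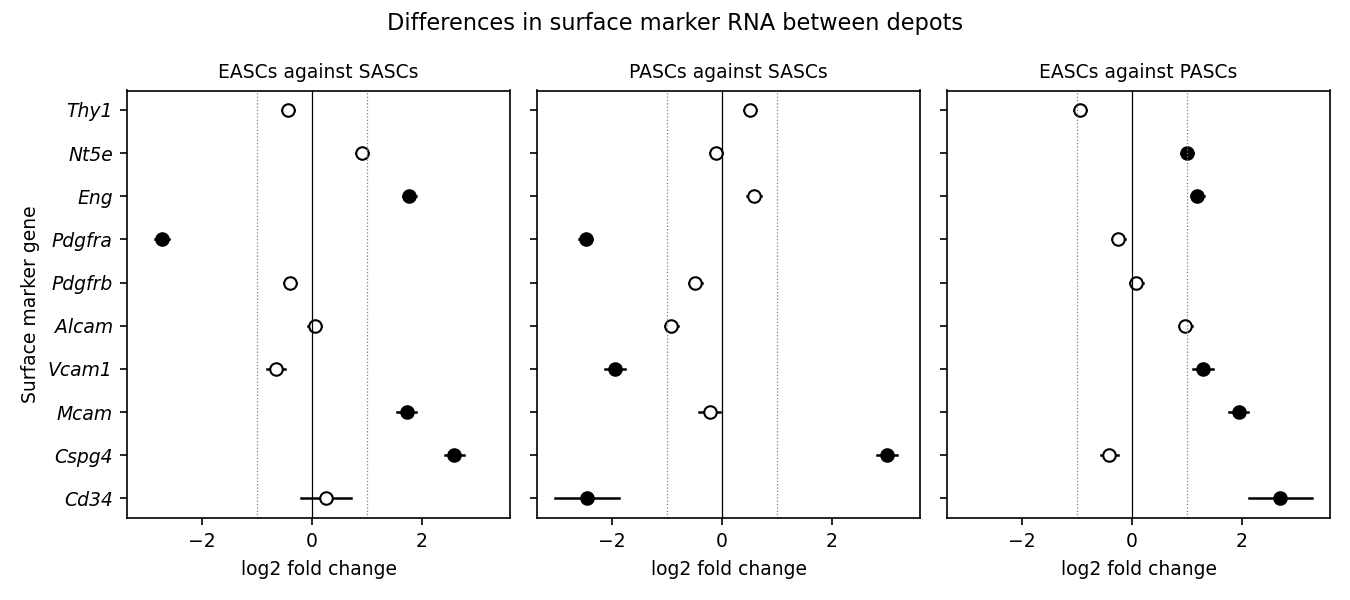
Log2 fold change of each surface marker (horizontal axis) in the 3 comparisons, with its 95% confidence interval as a line, filled circles for called genes and open circles for the rest. Dotted lines mark a 2-fold change. Pdgfra lay at -2.72 and -2.47 against SASCs and Cspg4 at 2.59 and 2.997, while Mcam lay at 1.72 in EASCs and -0.22 in PASCs.

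With total counts in place of TMM scaling, the median of all genes moved to -0.39 on the log2 scale in EASCs against SASCs, to -0.33 in PASCs against SASCs, and to -0.08 in EASCs against PASCs. The share of higher genes among those called moved with it from 48.8% to 28.3% in EASCs against SASCs, and from 44.7% to 28.5% in PASCs against SASCs. With 3 samples against 3, the exact permutation test of 1 gene cannot go below 0.1 (two-sided), and it gave 0.1 for every marker whose groups did not overlap.

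Thy1 encodes a small glycoprotein anchored to the membrane that takes part in cell adhesion. It lies at chr8:48382121-48386935 (rn6, plus strand). Its level was 405, 404, and 421 FPKM in SASCs, against 601, 595, and 559 in PASCs and 299, 307, and 308 in EASCs. The 3 groups did not overlap, with PASCs highest and EASCs lowest. None of the differences reached 2-fold with TMM scaling: the log2 fold change was -0.43 in EASCs against SASCs, 0.51 in PASCs against SASCs, and -0.94 in EASCs against PASCs. Each passed the test (adjusted p = 6.17e-08, 2.17e-09, and 6.49e-14, edgeR), and the rise in PASCs over SASCs was 0.19 with total counts as the scaling (adjusted p = 0.325). With total counts, Thy1 was -1.01 in EASCs against PASCs and was called lower.

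Nt5e encodes ecto-5′-nucleotidase, which makes adenosine from AMP outside the cell, and lies at chr8:95969002-96012733 (plus strand). SASCs had 120.4, 118, and 122 FPKM, PASCs 109, 115, and 113, and EASCs 226, 224, and 226. All 3 EASCs samples were above all others, while the SASCs and PASCs samples came within a few FPKM of each other without overlap. The log2 fold change was 1.01 in EASCs against PASCs (95% confidence interval 0.90 to 1.12, edgeR adjusted p = 7.45e-15) and 0.91 in EASCs against SASCs (adjusted p = 7.77e-15). The call at 2-fold in the first thus rests on a value close to the threshold, and without PASCs replicate 1 it was 0.99 and no longer called. Nor was Nt5e called there with total counts (0.94), with total counts after removal of rRNA genes, or by the test against a 2-fold change (adjusted p = 1). Between PASCs and SASCs the value was -0.10 (-0.21 to 0.01, adjusted p = 0.0893), which passed with DESeq2 (-0.11, adjusted p = 0.0126), with total counts (-0.42, adjusted p = 0.0182), with total counts after removal of rRNA genes (-0.17, adjusted p = 0.00435), and with limma (-0.32, adjusted p = 4.96e-05).

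Eng encodes endoglin, a co-receptor for ligands of the TGF-beta family, and lies at chr3:11679530-11717485 (plus strand). Its level was 19.4, 20.7, and 22.0 FPKM in SASCs, against 30.9, 30.0, and 32.2 in PASCs and 68.4, 70.1, and 73.4 in EASCs. The groups followed the order SASCs, PASCs, and EASCs without overlap. Eng was 3.41-fold higher in EASCs than in SASCs (log2 fold change 1.77 ± 0.06 SE, edgeR adjusted p = 3.91e-20) and 2.28-fold higher than in PASCs (1.19 ± 0.06, adjusted p = 1.91e-15). PASCs stood 1.50-fold above SASCs (0.58, adjusted p = 1.40e-09), which became 0.26 with total counts (adjusted p = 0.157). Between 85.6 and 87.1% of detected genes lay below Eng in SASCs, and 95.5 to 95.9% in EASCs.

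Of the 3 classical markers, Nt5e and Eng had their highest level in EASCs and Thy1 in PASCs. Thy1 stood at 3.42 ± 0.05 times Nt5e in SASCs, 5.23 ± 0.29 times in PASCs, and 1.35 ± 0.02 times in EASCs (ratio of FPKM within a sample, mean ± SD, n = 3). From counts alone this ratio was 1.61, 2.46, and 0.635, so which of the pair is higher in EASCs depends on the listed lengths. The ratio of Eng to Nt5e was 0.173 ± 0.010 in SASCs, against 0.277 ± 0.013 in PASCs and 0.313 ± 0.011 in EASCs.

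Pdgfra and Pdgfrb encode the receptor tyrosine kinases for platelet-derived growth factors, and Pdgfra was the marker with the largest fall against SASCs in EASCs. Pdgfra lies at chr14:35527926-35581129 (minus strand). Its level was 211, 212, and 221 FPKM in SASCs, against 37.1, 37.5, and 41.5 in PASCs and 31.5, 32.6, and 33.9 in EASCs. All SASCs samples were far above the others, and EASCs lay just under PASCs without overlap. The fall was 6.58-fold in EASCs (log2 fold change -2.72 ± 0.06 SE, edgeR adjusted p = 4.19e-24) and 5.55-fold in PASCs (-2.47 ± 0.06, adjusted p = 3.50e-23). Of all genes tested, 3.38% in EASCs and 4.24% in PASCs fell by more than Pdgfra. Between EASCs and PASCs the log2 fold change was -0.24 (adjusted p = 0.00153), and -0.32 with an adjusted p of 0.210 with total counts. A predicted gene on the same strand within Pdgfra, LOC102554024, held at most 0.148% of its count.

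Pdgfrb lies at chr18:56364587-56406381 (plus strand) and moved much less. Its level was 77.8, 78.6, and 79.7 FPKM in SASCs, against 55.0, 54.4, and 59.9 in PASCs and 57.6, 60.1, and 61.7 in EASCs. SASCs were above both other depots, which overlapped each other. The log2 fold change was -0.40 in EASCs against SASCs (edgeR adjusted p = 3.51e-07), -0.48 in PASCs against SASCs (adjusted p = 1.25e-08), and 0.08 in EASCs against PASCs (95% confidence interval -0.03 to 0.20, adjusted p = 0.270). LOC102555480, which overlaps Pdgfrb on the other strand, held at most 0.654% of its count.

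The ratio of the receptors within a sample was 2.73 ± 0.04 in SASCs, against 0.685 ± 0.010 in PASCs and 0.546 ± 0.004 in EASCs (FPKM of Pdgfra over FPKM of Pdgfrb, mean ± SD, n = 3). Pdgfra was therefore the higher of the pair in all 3 SASCs samples and the lower in all 6 samples of the other depots. The scaling of a library does not enter this ratio, but the listed lengths of the genes do. From counts alone it was 3.49, 0.875, and 0.698.

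**Figure D3:**
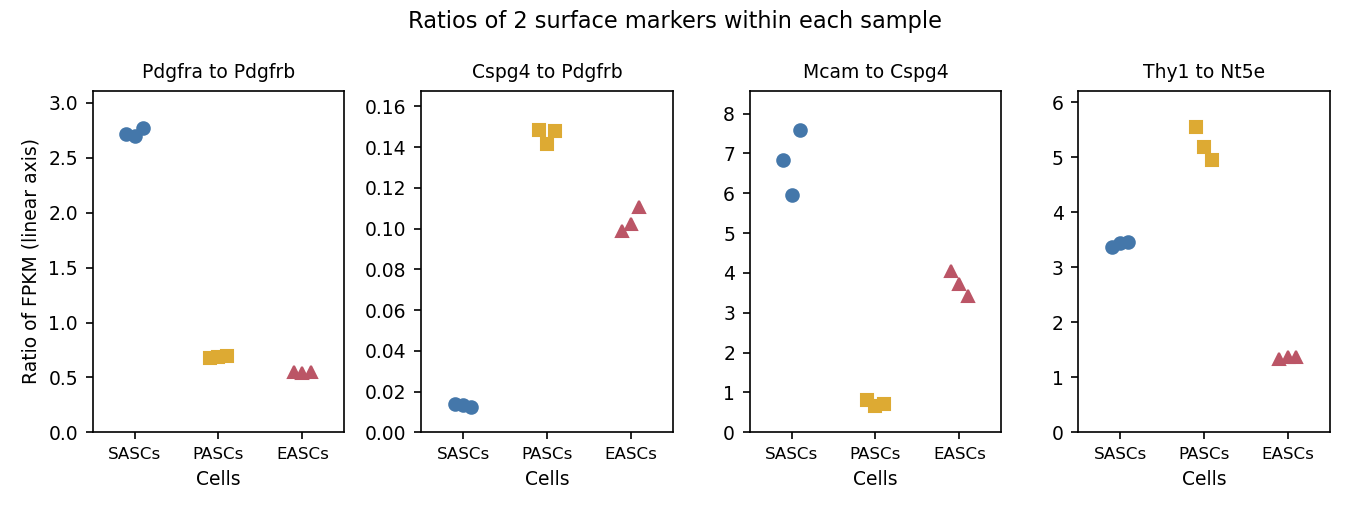
Ratios of FPKM of 2 surface markers within each sample (vertical linear axes from 0) in SASCs, PASCs, and EASCs, with 1 point for each of the 3 samples of a group. Pdgfra to Pdgfrb was 2.70 to 2.77 in SASCs and 0.542 to 0.693 in the other depots, and Mcam to Cspg4 was 0.664 to 0.811 in PASCs and 3.41 to 7.60 in the other depots.

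Of the ligands of these receptors, Pdgfa was higher and Pdgfd lower in both other depots than in SASCs. Where 3 values are given in a series from here on, they follow the order SASCs, PASCs, and EASCs. Pdgfa, which binds PDGFRA, had 5.46 ± 0.90 FPKM in SASCs, against 13.6 ± 1.34 in PASCs and 12.3 ± 0.15 in EASCs (log2 fold change 1.17 in EASCs and 1.32 in PASCs, edgeR adjusted p = 2.80e-12 and 2.17e-13). Pdgfd, a ligand of PDGFRB, had 19.4 ± 0.87, 3.91 ± 0.71, and 1.75 ± 0.36 FPKM (-3.46 and -2.32, adjusted p = 7.32e-18 and 4.63e-15). Pdgfb was lower in PASCs, at 0.549 ± 0.134 FPKM against 1.98 ± 0.118 in SASCs and 2.09 ± 0.169 in EASCs, and Pdgfc was lower in EASCs, at 1.94 ± 0.461 against 4.20 ± 0.488 in SASCs. The value of Pdgfc (-1.11) was close to the threshold and did not pass edgeR's test against a 2-fold change (adjusted p = 0.486). Of 14 genes of PDGF signaling, all tested, 1 was called higher and 3 lower in each comparison with SASCs. This and the counts of the other lists below are to be read against the shares of all genes called, 27.8% in EASCs and 26.9% in PASCs against SASCs. Pik3r1, a regulatory subunit of PI 3-kinase, was called lower in both, at -1.93 in EASCs and -2.04 in PASCs.

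Endoglin works with the receptors and ligands of the TGF-beta family, and these moved in both directions. Tgfb3 had 10.9 ± 0.28 FPKM in SASCs, against 42.6 ± 0.55 in PASCs and 157 ± 1.92 in EASCs, the same order of depots as Eng. Tgfb2 had 4.33 ± 0.30, 5.79 ± 0.31, and 19.1 ± 1.16 FPKM. The signaling receptor Tgfbr2 had 292 ± 9.25 FPKM in SASCs and 55.9 ± 2.06 and 56.9 ± 1.24 in PASCs and EASCs, and the co-receptor Tgfbr3 had 151 ± 7.51, 29.7 ± 2.05, and 21.8 ± 1.15 FPKM. Tgfbr1 was called higher in EASCs (log2 fold change 1.16, edgeR adjusted p = 7.68e-13). Acvrl1, the receptor for BMP9 and BMP10 that endoglin assists in endothelium, differed by 0.31 in EASCs and 0.34 in PASCs. With total counts these values were -0.085 and 0.0125, and neither passed (edgeR adjusted p = 0.667 and 0.955). Of 14 genes tested on this list, 4 were called higher and 2 lower in EASCs, and 2 higher and 2 lower in PASCs, against SASCs. Gdf2, the gene of BMP9, and Bmp10 had 0 counts in all 9 samples.

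Around Nt5e, the enzymes and receptors of extracellular adenosine also moved both ways. Enpp1, which releases AMP from ATP, had 2.33 ± 0.08 FPKM in SASCs, against 29.0 ± 0.86 in PASCs and 30.8 ± 0.44 in EASCs. Enpp3 of the same family went the other way, with 336 ± 3.62 FPKM in SASCs, against 45.01 ± 3.24 in PASCs and 37.2 ± 1.61 in EASCs, and Entpd2, which splits ATP, had 5.72 ± 0.40, 3.17 ± 0.24, and 3.04 ± 0.35. Ada, which degrades adenosine, had 4.23 ± 0.27, 12.1 ± 0.43, and 13.6 ± 0.51 FPKM, whereas Dpp4, which anchors that enzyme to the surface in some species, had 2.42 ± 0.23, 0.268 ± 0.040, and 0.157 ± 0.065. The receptor Adora2b had 35.0 ± 1.05, 16.4 ± 2.32, and 13.9 ± 0.56 FPKM. Adora1 had 11 to 20 counts a sample in SASCs, against 2 to 4 in PASCs and 0 to 2 in EASCs. Entpd1 (CD39), the usual source of AMP for NT5E on leukocytes, had 0 to 6 counts a sample and was not tested. Of the 15 genes listed, 10 were tested, of which 2 were called higher and 4 lower in EASCs, and 2 higher and 5 lower in PASCs, against SASCs.

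**Figure D4:**
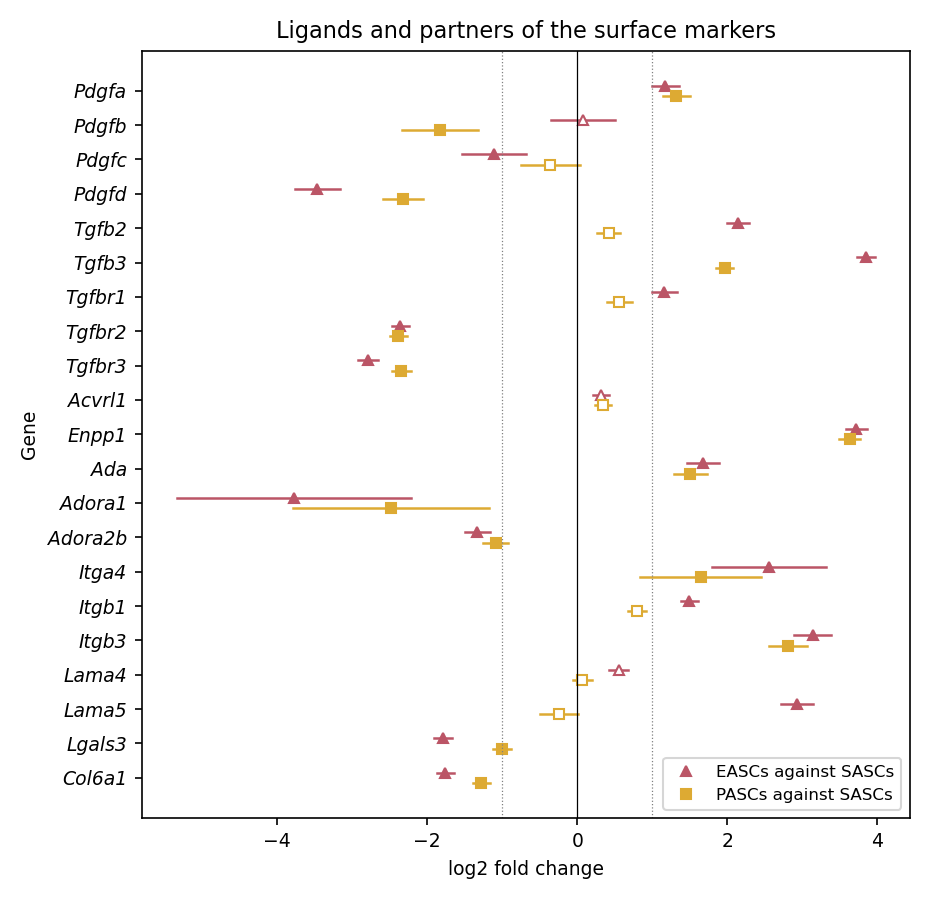
Log2 fold change against SASCs (horizontal axis) of ligands and partners of the surface markers in EASCs (triangles) and PASCs (squares), with 95% confidence intervals as lines and filled symbols for called genes. Dotted lines mark a 2-fold change. Tgfb3 lay at 3.85 and 1.96, Pdgfd at -3.46 and -2.32, and Lama5 at 2.93 in EASCs and -0.25 in PASCs.

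Vcam1 and Alcam, adhesion molecules of the immunoglobulin family, had their lowest mean in PASCs, as did Nt5e, Cd34, Pdgfrb, and Mcam. Vcam1 (chr2:219071193-219090931, minus strand) had 15.5, 13.6, and 14.3 FPKM in SASCs, against 4.02, 3.73, and 3.47 in PASCs and 9.96, 8.46, and 9.20 in EASCs. The groups did not overlap, with EASCs between the others. Vcam1 was 3.85-fold lower in PASCs than in SASCs (log2 fold change -1.94 ± 0.09 SE, edgeR adjusted p = 4.88e-17) and 2.45-fold higher in EASCs than in PASCs (1.29 ± 0.09, adjusted p = 4.41e-12). In EASCs against SASCs it was -0.65 (adjusted p = 5.76e-08), and -1.05 and called lower with total counts.

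Alcam (CD166; chr11:50781127-50985083, plus strand) had 39.3, 39.1, and 41.6 FPKM in SASCs, against 19.8, 21.6, and 22.2 in PASCs and 42.5, 40.2, and 42.0 in EASCs. All PASCs samples were below all others, and SASCs and EASCs overlapped. The log2 fold change was -0.92 in PASCs against SASCs (edgeR adjusted p = 9.14e-14) and 0.97 in EASCs against PASCs (adjusted p = 2.00e-13), both short of 2-fold with TMM scaling. Alcam was called lower in the former with total counts (-1.24) and with limma, and called higher in the latter without PASCs replicate 3 (1.01) and with upper-quartile factors. Between EASCs and SASCs the value was 0.06 (95% confidence interval -0.06 to 0.17, adjusted p = 0.390).

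Itgb1 and Itga4 encode the chains of the integrin that binds VCAM1. Itgb1 had 277 ± 4.24 FPKM in SASCs, against 481 ± 21.9 in PASCs and 783 ± 18.2 in EASCs, and the last was a called rise over SASCs (log2 fold change 1.50, edgeR adjusted p = 1.12e-18). Itga4 was scarce, at 8 to 9 counts a sample in SASCs, against 22 to 29 in PASCs and 44 to 58 in EASCs. Itgb3, the beta chain of a vitronectin receptor, had 1.15 ± 0.09, 8.01 ± 0.21, and 10.1 ± 0.57 FPKM. Of 20 adhesion partners tested, 8 were called higher and 3 lower in EASCs, and 7 higher and 2 lower in PASCs, against SASCs. Among the lower ones were Lgals3 (-1.79 and -1.001), a galectin, and Col6a1 (-1.76 and -1.28), a chain of collagen VI, the ligand of CSPG4. The call of Lgals3 in PASCs rests on a value at the threshold, and it was lost with the test against a 2-fold change (adjusted p = 0.891), with upper-quartile factors, with no filter, with the 2 groups alone, and without SASCs replicate 2, PASCs replicate 2 or 3, or EASCs replicate 1 or 2.

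Mcam, an adhesion molecule of endothelial and mural cells, was set apart in EASCs. It lies at chr8:48472824-48481005 (plus strand). Its level was 7.27, 6.21, and 7.44 FPKM in SASCs, against 6.63, 5.11, and 6.28 in PASCs and 23.0, 22.9, and 23.3 in EASCs. The EASCs samples were above all others, and SASCs and PASCs overlapped. Mcam was 3.30-fold higher in EASCs than in SASCs (log2 fold change 1.72 ± 0.08 SE, edgeR adjusted p = 2.84e-16) and 3.84-fold higher than in PASCs (1.94 ± 0.09, adjusted p = 3.10e-16). In PASCs against SASCs the value was -0.22 (adjusted p = 0.0366). It no longer passed without SASCs replicate 1 (adjusted p = 0.123), SASCs replicate 3 (0.131), or PASCs replicate 2 (0.329). Nor did it pass with the 2 groups alone (edgeR adjusted p = 0.0694), with limma (0.0930), or in the test against a 2-fold change. Of laminin chains reported to bind MCAM, Lama4 had 49.96 ± 2.77 FPKM in SASCs, against 52.3 ± 4.39 in PASCs and 73.4 ± 3.06 in EASCs. With total counts, Lama4 in EASCs against SASCs was 0.16 on the log2 scale and no longer passed (edgeR adjusted p = 0.408). Lama5, on the same adhesion list, had 0.882 ± 0.068, 0.753 ± 0.146, and 6.75 ± 0.85 FPKM and was 9.08-fold higher in EASCs than in PASCs (edgeR adjusted p = 1.03e-18).

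Cspg4, a proteoglycan of pericytes and other progenitors, rose in PASCs and EASCs. It lies at chr8:61532465-61567510 (plus strand). Its level was 1.06, 1.04, and 0.979 FPKM in SASCs, against 8.17, 7.69, and 8.86 in PASCs and 5.68, 6.15, and 6.82 in EASCs. The groups did not overlap, with SASCs lowest and PASCs highest. The rise over SASCs was 7.98-fold in PASCs (log2 fold change 2.997 ± 0.087 SE, edgeR adjusted p = 1.87e-21) and 6.03-fold in EASCs (2.59 ± 0.09, adjusted p = 5.33e-20). Of all genes tested, 2.07% in PASCs and 3.61% in EASCs rose by more than Cspg4. With limma on log2(FPKM + 1), which understates the change of low genes, the values were 2.21 in PASCs and 1.85 in EASCs. Between EASCs and PASCs the value was -0.40 (adjusted p = 6.74e-05). Odf3l1, which overlaps Cspg4 on the other strand, had 0 to 1 counts in SASCs, against 19 to 42 in PASCs and 72 to 84 in EASCs, at most 6.85% of the count of Cspg4, and reads of the pair cannot be told apart if strand was not used.

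Mcam and Cspg4, both known from pericytes, were both called higher in EASCs than in SASCs (log2 fold change 1.72 and 2.59). They parted in the comparisons with PASCs, with -0.22 and 2.997 in PASCs against SASCs and 1.94 and -0.40 in EASCs against PASCs. The ratio of Mcam to Cspg4 was 6.80 ± 0.82 in SASCs, against 0.728 ± 0.075 in PASCs and 3.72 ± 0.31 in EASCs, and that of Cspg4 to Pdgfrb was 0.0131 ± 0.0007, 0.146 ± 0.004, and 0.104 ± 0.006 (FPKM, mean ± SD, n = 3). Of 17 other mural genes tested, 7 were called higher and 6 lower in EASCs and 5 higher and 7 lower in PASCs, against SASCs, and 11 were called higher in EASCs than in PASCs with none lower, where 5.19% of all genes were called higher and 2.20% lower. The contractile genes Cnn1 and Tagln were called higher in both PASCs and EASCs than in SASCs, and of these Cnn1 was also called higher in EASCs than in PASCs. Cnn1 had 1.77 ± 0.08 FPKM in SASCs, against 76.6 ± 4.84 in PASCs and 226 ± 6.67 in EASCs. Rgs5, a defining pericyte gene, had 20 to 39 counts a sample in SASCs, against 0 to 4 in PASCs and 2 to 7 in EASCs, and the endothelin receptor Ednra was lower by 1.85 in EASCs and 4.03 in PASCs on the log2 scale. The summed level of the mural list was 516 to 532 CPM in SASCs, against 3041 to 3313 in PASCs and 6537 to 6897 in EASCs, and most of it came from Tagln and Acta2 in PASCs (1892 ± 132 and 911 ± 15 CPM) and EASCs (3583 and 2200 CPM), against 74.2 and 55.7 CPM in SASCs. Kcnj8, Abcc9, and Notch3, as well as Rgs5 and Ednra, were called lower in PASCs and EASCs than in SASCs. The part of mural RNA in the values of Mcam and Cspg4 was not tested.

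Cd34, a sialomucin of progenitors and endothelium, was the scarcest marker in PASCs and EASCs. It lies at chr13:113691841-113711259 (plus strand). SASCs had 1.91, 1.78, and 2.47 FPKM (67 to 88 counts), PASCs 0.287, 0.537, and 0.264 (8 to 23 counts), and EASCs 2.30, 2.71, and 2.29 (82 to 107 counts). All PASCs samples were below all others, and SASCs and EASCs overlapped. Cd34 was 5.46-fold lower in PASCs than in SASCs (log2 fold change -2.45 ± 0.29 SE, edgeR adjusted p = 2.09e-08) and 6.51-fold higher in EASCs than in PASCs (2.70 ± 0.28, adjusted p = 1.34e-08). With limma on log2(FPKM + 1), the values were -1.09 and 1.30. Between EASCs and SASCs the value was 0.25 (95% confidence interval -0.20 to 0.71, adjusted p = 0.316). Its coefficient of variation in PASCs, 41.7%, was the largest of the markers in any depot. LOC102550245, which overlaps Cd34 on the other strand, had 7 to 8 counts in SASCs (at most 10.4% of the count of Cd34), 0 in PASCs, and 0 to 6 in EASCs (at most 5.61%), and the same limit on strand holds for this pair.

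Most genes of the endothelial list had their lowest level in PASCs. Of 15 endothelial genes tested, 12 were called lower and 1 higher in PASCs against SASCs, 2 higher and 2 lower in EASCs against SASCs, and 12 higher with none lower in EASCs against PASCs, where 7.39% of all genes were called. Pecam1 had 4.91 ± 0.57 FPKM in SASCs, against 0.516 ± 0.170 in PASCs and 3.01 ± 0.27 in EASCs, and Cdh5, the cadherin of endothelial junctions, had 3.60 ± 0.34, 0.441 ± 0.095, and 3.82 ± 0.28. The endothelial list summed to 115 to 118 CPM in SASCs, against 62.6 to 69.2 in PASCs and 123 to 134 in EASCs. Tek, the angiopoietin receptor, and Flt1, a VEGF receptor, went the other way and were lowest in SASCs, with 0.536 ± 0.025, 1.74 ± 0.14, and 1.70 ± 0.16 FPKM and 2.45 ± 0.18, 3.50 ± 0.19, and 10.1 ± 0.51 FPKM, and Egfl7 was lowest in EASCs (14.6, 13.5, and 10.1 FPKM). The part of endothelial RNA in the values of Cd34, Vcam1, Mcam, and Eng was not tested.

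Other lists of cell types also differed between depots, and their part in the markers' values was not tested. All 10 mesothelial genes tested were called higher in PASCs and 9 in EASCs than in SASCs, and the list summed to 22.0 to 23.6 CPM in SASCs, against 229 to 232 in PASCs and 194 to 209 in EASCs, with Msln at 5.64 ± 0.12, 16.4 ± 0.52, and 17.4 ± 1.14 FPKM and Wt1 at 0.617 ± 0.028, 11.6 ± 0.394, and 17.3 ± 0.677 FPKM. Leukocyte genes summed to 87.1 to 96.8, 155 to 161, and 271 to 276 CPM, with 12 of 14 tested called higher in EASCs and 8 higher and 1 lower in PASCs against SASCs, and their defining gene Ptprc was low but differed too, with 1.02 ± 0.25, 1.62 ± 0.27, and 3.06 ± 0.20 CPM (22 to 26, 36 to 41, and 70 to 77 counts), and was called higher in EASCs than in SASCs (log2 fold change 1.61, edgeR adjusted p = 7.95e-06). All 7 adipocyte genes tested were lower in PASCs and EASCs than in SASCs, and the list summed to 168 to 182 CPM in SASCs, against 43.5 to 49.5 in PASCs and 24.4 to 25.5 in EASCs, with Adipoq at 18.3 ± 1.43, 6.51 ± 0.42, and 2.86 ± 0.18 FPKM. Of 5 Schwann cell genes tested, 1 was called higher in PASCs and in EASCs, 2 lower in EASCs, and 1 lower in PASCs, and the list summed to at most 35.5 CPM. Of 3 muscle genes tested, 2 were called higher in PASCs and in EASCs and 1 lower in EASCs, at a sum of at most 3.10 CPM, and the satellite cell gene Pax7 was at 0 in all samples. Fibroblast genes summed to 31420 to 40709 CPM over all samples, and of 11 tested none was called higher and 3 lower in EASCs, and 1 higher and 2 lower in PASCs. Dcn and Lum, proteoglycans of the matrix, were called lower in both, with 3753 ± 84.6 and 1871 ± 8.23 FPKM in SASCs, against 119 ± 5.85 and 53.9 ± 4.79 in PASCs and 164 ± 9.07 and 42.9 ± 0.597 in EASCs. Col1a1, the gene of this list with the most counts, had 1836 ± 84.0, 3284 ± 374, and 3490 ± 246 FPKM.

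Further surface genes used for mesenchymal stem cells also moved in both directions. Of 19 tested, 7 were called higher and 3 lower in EASCs and 4 higher and 3 lower in PASCs, against SASCs. Anpep (CD13) had the largest fall, with 660 ± 34.5 FPKM in SASCs, against 38.1 ± 2.49 in PASCs and 19.6 ± 0.946 in EASCs. Lrp1 (CD91) had 269 ± 21.2, 71.9 ± 8.60, and 72.3 ± 7.50 FPKM. Ncam1 (CD56) had 2.95 ± 0.40, 13.03 ± 0.69, and 36.9 ± 2.57 FPKM, and Ngfr (CD271) had 4 to 9 counts a sample in SASCs, against 35 to 47 in PASCs and 18 to 30 in EASCs. Cd44 (44.0 ± 1.23 FPKM in EASCs, 39.0 ± 0.475 in SASCs) differed by 0.18 and 0.28 on the log2 scale in EASCs and PASCs. Of 12 negative markers, 6 were tested, of which 4 were called higher in EASCs, and 3 higher and 1 lower in PASCs. They summed to 33.3 to 49.9 CPM over all samples, against 1925 to 3196 CPM for the 10 markers, with Cd74 of antigen presentation at 2 to 46 counts a sample. Cd14 had the highest CPM of the 12, with means of 21.5, 26.9, and 29.1. Its FPKM was 11.5, 14.4, and 15.6, above Cd34 and Cspg4 in every depot. It was below Thy1, Nt5e, Eng, Pdgfra, Pdgfrb, and Alcam in every depot, so the contrast of the sums does not hold for every gene. The call of Cd74 as higher in EASCs than in SASCs was lost without SASCs replicate 2 (edgeR adjusted p = 0.0992), SASCs replicate 3 (0.0823), or EASCs replicate 1 (0.189), and with total counts (0.0742) or the test against a 2-fold change (0.297).

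For each marker, the genes whose pattern over the 9 samples was closest to it were named by Pearson's r of log2 CPM among about 8565 genes at a mean of 10 CPM or more. These are descriptions, since the samples form 3 groups of 3 and all genes share the same libraries and scaling. Pdgfra was closest to Enpp3 (r = 0.9999), an ectonucleotide pyrophosphatase, and Steap2 (0.9996). Cspg4 was closest to Pde2a (0.9994) and Uhrf1 (0.9989), and Eng to Cux1 (0.9989) and Actg2 (0.9982). Nt5e was closest to Tgm2 (0.997) and RGD1308428 (0.995), Alcam to Jag1 (0.996) and Gja5 (0.994), and Vcam1 to Ptx3 (0.995) and Parm1 (0.992). Pdgfrb was closest to Npr2 (0.995) and Arhgap17 (0.994), Mcam to Lama5 (0.993) and Hist1h2bh (0.991), Thy1 to Palmd (0.992) and Ptgs1 (0.991), and Cd34 to Gbp2 (0.987) and Atxn7l3b (0.983).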

How the data were processed

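RNA of 9 ASC samples was sequenced, 3 from each fat depot. The authors trimmed the reads, aligned them with TopHat, and deposited whole-number read counts for 35362 genes, with each gene's position and length. The methods name rn6 and the submitters' processing notes rn5, and the contig names and chromosome ends of the table are those of rn6. The counting tool, use of strand, and treatment of shared reads are not given in the sources used here. The rRNA precursor gene had 1 to 1.001 times the summed count of its parts in every sample, so these reads were counted for both.

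Counts were scaled by TMM (factors 0.740 to 1.23), filtered with filterByExpr, and tested with edgeR 4.0.16 in R 4.3.3 in 1 model of the 3 groups without a block, in place of the study's DEGseq. Benjamini-Hochberg adjustment was over 14770 genes. The fit was checked on counts simulated with a common spread for all genes, where 200 of 200 changed genes were recovered. The changed genes were well counted and their changes were above 2-fold. The check therefore does not cover low counts, values near the threshold, or spread that differs between genes. FPKM was computed here from TMM-scaled CPM and the deposited lengths. Total counts ranged from 17591916 to 30299032, and floors of counts cover counting error only, whereas the 95% confidence intervals come from edgeR's fit and cover the spread between samples. The coefficient of biological variation was 0.0685.

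Members and lists of genes were chosen with earlier results of these data known. The genes named are the 10 markers, their direct ligands and partners, the defining genes of each cell type list, at most 4 further genes of a list by the largest changes, and for each marker the 2 genes with the closest pattern, except 1 item not reported here. Cd44, Cd14, Bmp10, Gdf2, Entpd2, Tek, Egfl7, Acta2, Kcnj8, Abcc9, Notch3, and Col1a1 fall outside this rule and were chosen after their values were seen. Sequences are RefSeq's on GRCr8, and motifs were matched on both strands. Alternatives were other scalings, DESeq2 1.42.0, limma 3.58.1 on log2(FPKM + 1), no filter, a test against 2-fold, 2 groups only, a replicate block, and leaving out each sample.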

Additional observations from a re-analysis of the deposited data

How the results depend on the processing

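The number of markers called stayed at 4 in EASCs against SASCs and in PASCs against SASCs when each sample was left out, and ranged from 4 to 6 in EASCs against PASCs. The numbers of all genes called ranged from 4115 to 4338, 3957 to 4133, and 1022 to 1108. The limma test on quantile-normalized log2(FPKM + 1) called 1889, 1801, and 254 genes, and the test against a 2-fold change called 397 in EASCs against PASCs. Per total counts, the median FPKM of the markers was 36.0, 24.8, and 33.4 in SASCs, PASCs, and EASCs, which turns the order of SASCs and EASCs, and the ratio of Pdgfra to Pdgfrb from counts was 3.49, 0.875, and 0.698. In EASCs against SASCs, total counts turned the log2 fold changes of Cd34 to -0.13, Alcam to -0.34, Acvrl1 to -0.085, Pdgfb to -0.33, and Cdh5 to -0.32. With total counts after removal of rRNA genes, Alcam was -0.0685, Pdgfb -0.0478, and Cdh5 -0.0344, and limma gave Alcam -0.12. Lama4 in PASCs against SASCs was -0.25, -0.00246, and -0.11 under these, and ranged from -0.00405 to 0.11 when each sample was left out. Against SASCs, total counts also moved Thy1 (EASCs) to -0.82, Nt5e (EASCs) to 0.52, Vcam1 (EASCs) to -1.05, and Pdgfrb to -0.79 in EASCs and -0.80 in PASCs. They thereby called Vcam1 lower in EASCs and Alcam lower in PASCs (-1.24) against SASCs, and in EASCs against PASCs they called Thy1 lower (-1.01) and no longer called Nt5e (0.94). Limma gave Cd34 -1.09 in PASCs against SASCs and 1.30 in EASCs against PASCs, and Cspg4 2.21 in PASCs and 1.85 in EASCs against SASCs, on the log2(FPKM + 1) scale. The cause was not tested.

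Across depots, samples share a replicate number and a title prefix common to all 9, which is not explained in the sources used here. Correlations of same-numbered samples lay between -0.0348 and 0.0380, and 4 of 9 samples were closest to their own number. With a replicate block 4061, 3944, and 1067 genes were called, against 4105, 3979, and 1091, and 4, 4, and 5 markers. Another source of gene lengths was not run. At this depth, the values of Cd34 in PASCs rest on 8 to 23 counts.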
